A study of Mus musculus with 16 samples.

Results

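The response of mouse quadriceps muscle to dexamethasone that wild-type (WT) and Klf15 knockout (KO) animals had in common was examined by averaging the effect of the drug over both genotypes. All 16 arrays of the series entered, chosen by their treatment label: 8 arrays of dexamethasone-treated muscle against 8 of vehicle-treated muscle. The groups were WT muscle after vehicle, WT muscle after dexamethasone, KLF15_KO muscle after vehicle and KLF15_KO muscle after dexamethasone, with 4 animals and 4 arrays in each. Dexamethasone was given once by intraperitoneal injection at 2 mg/kg, the controls received the same volume of vehicle, and muscle was taken at 8 h. The comparison asks which muscle transcripts a glucocorticoid changes whether or not KLF15 is present. Neither the age, sex and strain of the animals nor the design of the targeted allele is stated in the labels.

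Glucocorticoids bind the glucocorticoid receptor (encoded by Nr3c1), a nuclear receptor held in the cytoplasm by the chaperone HSP90 and its partner proteins. The bound receptor moves to the nucleus, where it raises transcription from palindromic glucocorticoid response elements and lowers that of many inflammatory genes, in part by acting on other transcription factors. In skeletal muscle the hormone is known for promoting protein breakdown and release of amino acids, for lowering glucose use and for raising the use of fat. KLF15, a zinc-finger transcription factor, is itself induced by glucocorticoids in muscle.

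Each array gave 1 intensity per probe, which was put on a log2 scale and set relative to the 75th percentile of that array, so that a level of 0 is the array's 75th percentile. A feature is 1 probe per gene, or per transcript accession where no gene symbol was found. A total of 25189 features were tested, 15175 of them with a symbol. Spots well above background made up 66.3% to 80.6% of each array, and arrays had a 75th percentile of 554 to 1169 intensity units. The extraction software marked WT dexamethasone 1 and KO dexamethasone 2 and 4 for evaluation, and all other arrays as in range. WT dexamethasone 3, the array of lowest intensity, was scanned on a later date than all the others. Arrays of the same group correlated at 0.933 to 0.99. The muscle label was borne out by the fast-fibre markers, 13 of 13 of which, Acta1 and Ckm among them, were well above background on all 16 arrays. As a check of the genotype labels, the level of Klf15 was 2.8 or more on each of the 8 WT arrays and 0.64 or less on each of the 8 KO arrays. Neutrophil markers were raised on 2 dexamethasone arrays, WT replicate 3 and KO replicate 1, and counts of lists that moved by over 1.5 times without those arrays are given both ways. A further 4 arrays (WT vehicle 3, WT dexamethasone 1, KO vehicle 1 and KO dexamethasone 2) stood apart on the first principal component, which held 34.2% of the variance. WT dexamethasone 1 was the only array of slide 2, and the others were all the arrays of slide 7. On the second component (22.7%) the arrays of slides 1, 2, 3 and 8 lay between -107.2 and -31.1. Those of the other slides lay between -13.1 and 56.

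Averaged over the genotypes, dexamethasone changed 4338 features, 17.2% of those tested (limma with Benjamini-Hochberg adjustment, adjusted p under 0.05, two-sided). Of these 2278 rose (9.04% of features) and 2060 fell (8.18%), so that 52.5% of the changes were rises. That split depended on the scaling: with each array set to its median instead of its 75th percentile, 65.6% of 3093 called features were rises. Rises had a median log2 change of 0.49 and falls one of -0.58. A change of at least 2-fold (a log2 change of 1 or more in size) was seen for 358 rises (1.42%) and 368 falls (1.46%). Features with a symbol were called more often (19.2%) than those without (14.2%). In 752 features (2.99%) all 8 dexamethasone arrays lay above all 8 vehicle arrays, and in 578 (2.29%) they all lay below, together 5.28% of features. Of these 1327 (5.27%) were also called. Among the 6298 features of lowest level 6.95% were called and 35.8% of the calls were rises. Among the 6297 of highest level 19.4% were called, of which 68.1% were rises.

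The response was then described in each genotype on its own, since the WT and KO comparisons share no array. They do share slides: vehicle arrays of both genotypes lay on slides 4, 6 and 7, and dexamethasone arrays of both on slide 8. The 2 comparisons are thus not independent, and what part of their agreement came from slides was not tested. WT muscle alone had 2694 called features (10.7%) and KO muscle alone 2579 (10.2%). The 2 genotypes called 1355 features in the same direction (5.38%), 768 higher (3.05%) and 587 lower (2.33%). These make up 60.4% of the rises and 41.3% of the falls called in WT, and 53.6% of the rises and 51.2% of the falls called in KO. Of the 1272 features that rose in WT, 95.8% also had a higher mean in dexamethasone-treated KO muscle, where 60.0% of all features did. Of the 1422 that fell in WT, 83.5% were lower in KO, against 40.0% of all features. In the other direction, 93.2% of the 1433 rises called in KO were higher in WT (41.7% of all features), and 92.3% of the 1146 falls were lower (58.3%). Under 6 other settings (other scalings, the deposited values, the slide block and the arrays left out), these shares ranged from 86.8% to 98.9%. They were not computed with normexp background correction or with the replicate block. Called in opposite directions were 4 features in all, which makes disagreement rare among features that passed in both.

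**Figure D1:**
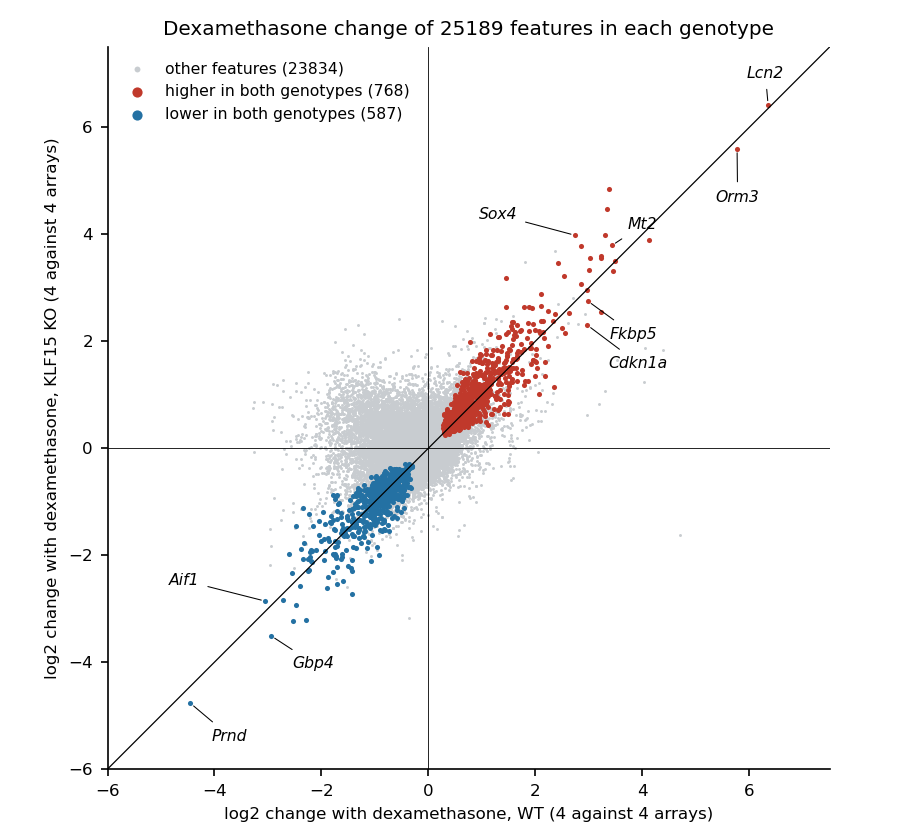
The log2 change with dexamethasone of each of 25189 features is plotted in WT muscle (x axis, 4 against 4 arrays) and in KLF15 KO muscle (y axis, 4 against 4 arrays), with the line of equal change. Red points are the 768 features called higher in both genotypes and blue points the 587 called lower, and both lie along the line from Prnd to Lcn2, while the grey points include a cloud to the left of 0 that was lower in WT and higher in KO.

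Across all features the WT and KO changes correlated weakly (Pearson r 0.35), with 40.9% of features of opposite sign. The correlation rose with level: in 4 groups of equal size, ordered from the lowest level to the highest, it was 0.25, 0.36, 0.59 and 0.69. Genes are not independent replicates, and the correlation is given as a description. The features called in the average that had opposite signs were few: 14 of 2278 rises and 41 of 2060 falls. They were called on the mean of the WT and KO changes, which by itself leaves few of opposite sign. These counts therefore do not measure agreement between the genotypes.

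The 12 largest rises were led by Lcn2 and Orm3. Lcn2, whose product lipocalin 2 binds bacterial siderophores, lay between -4.84 and -2.96 (log2 level, median -4.35) on the 8 vehicle arrays and between 1.69 and 2.8 (median 2.03) on the 8 dexamethasone arrays. Orm3, an orosomucoid (an acute-phase plasma protein), lay between -5.77 and -3.19 under vehicle and between -0.52 and 1.6 under dexamethasone. All dexamethasone arrays were thus far above all vehicle arrays for both genes, and the genotypes lay side by side. Lcn2 rose 83.5-fold (log2 change 6.38, SE 0.26, adjusted p 5.6e-09) and Orm3 51.3-fold (5.68, SE 0.37). The change of Lcn2 was 6.35 in WT and 6.42 in KO, a difference of 0.06 with a 95% interval from -1.06 to 1.19. Within the 4 slides that held both treatments of a genotype, Lcn2 differed by 6.48, 6.1, 6.63 and 6.35.

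Ptprf, which encodes the receptor tyrosine phosphatase LAR, rose 11.3-fold (log2 change 3.5, SE 0.14), with 3 of 3 probes called. The zinc importer gene Slc39a14 rose 10.6-fold (3.41, SE 0.12) and its second probe showed a log2 change of 1.89. Mt2, a metallothionein that binds zinc and copper, rose 12.2-fold (3.61, SE 0.22). Sox4, a transcription factor gene of progenitor cells, rose 10.3-fold (3.36, SE 0.24), by 2.74 in WT and 3.98 in KO. The prostaglandin D synthase gene Ptgds rose 12.5-fold (3.64, SE 0.35) and the stanniocalcin gene Stc2 8.99-fold (3.17, SE 0.21). Greb1 (4.11, SE 0.42) and the diacylglycerol kinase gene Dgki (3.39, SE 0.38) cleared background on only 2 and 3 of the 8 vehicle arrays, so that their size is less certain. Greb1 also varied between slides, from 1.63 on slide 5 to 5.73 on slide 6. The remaining members of the 12 largest rises were 6430548M08Rik (3.38) and Cmtm2a (3.28), whose second probe did not pass (0.04, adjusted p 0.97).

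The most precise rises were smaller. Prom1, which encodes the membrane glycoprotein prominin-1, lay between -3.33 and -2.78 on vehicle arrays and between -1.24 and -0.68 on dexamethasone arrays. Its rise of 4.35-fold (log2 change 2.12, SE 0.07) had the smallest p of all named features (adjusted p 7.8e-10). Map3k6, a kinase of stress signalling, lay between 1.87 and 2.37 under vehicle and between 4.07 and 4.34 under dexamethasone, a span of under 1 log2 unit in each treatment. It rose 4.46-fold (2.16, SE 0.07), by 2.13 in WT and 2.18 in KO.

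**Figure D2:**
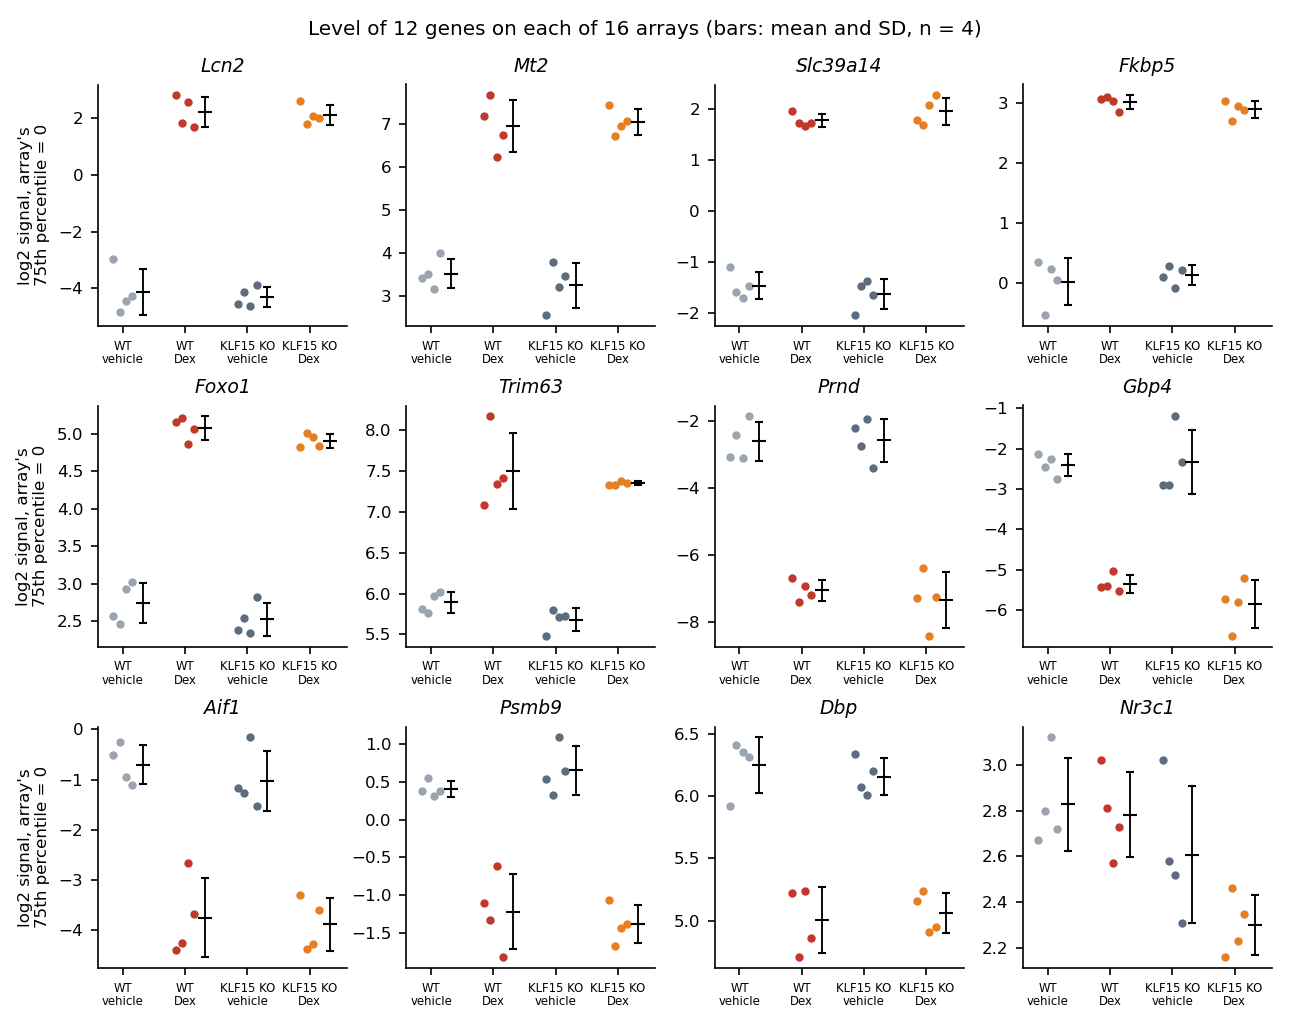
The log2 level (y axis, 0 being the 75th percentile of the array) is plotted for 12 genes on each of 16 arrays, in the order WT vehicle, WT dexamethasone, KLF15 KO vehicle and KLF15 KO dexamethasone (x axis); black bars are the mean and SD of 4 arrays. Treatments do not overlap for Lcn2, Mt2, Slc39a14, Fkbp5, Foxo1 and Trim63 (higher) or for Prnd, Gbp4, Aif1, Psmb9 and Dbp (lower), whereas those of Nr3c1 overlap.

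The receptor and its chaperones were described next, followed by genes known as receptor targets. Each count of a list is to be read beside the shares of all features called, 9.04% higher and 8.18% lower. In both genotypes these shares were 3.05% and 2.33%, and without overlap between treatments 2.99% and 2.29%. The lists were chosen with earlier results of these data known. Of 15 measured genes of the receptor complex and its cofactors, 3 rose and 0 fell, with a median log2 change of 0.09 where all features had -0.02. The probe used for Nr3c1 spanned 2.31 to 3.12 under vehicle and 2.16 to 3.02 under dexamethasone (log2 change -0.18, SE 0.11, adjusted p 0.34). Its 3 other probes gave -0.32, -0.44 and -0.33, and 2 of them passed the threshold (adjusted p 0.0076 and 0.042), so a small fall of the receptor transcript depended on the probe. The 3 members that rose were Fkbp5, Nrip1 and Ncoa1. Fkbp5, an hsp90 partner that lowers the receptor's affinity for hormone, lay between -0.53 and 0.35 under vehicle and between 2.7 and 3.09 under dexamethasone. It rose 7.3-fold (log2 change 2.87, SE 0.12, adjusted p 5.3e-09). The corepressor gene Nrip1 rose 1.91-fold (0.93, SE 0.14).

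Of 30 measured receptor targets 22 rose and 0 fell, with a median log2 change of 1.06. In both genotypes taken alone 17 rose, and 16 had no overlap between treatments. Over all features 9.04% rose, 3.05% rose in both genotypes and 2.99% lay higher without overlap. Mt1 (log2 change 2.96), the cell-cycle inhibitor gene Cdkn1a (2.64), Angptl4 (2.24), which encodes an inhibitor of lipoprotein lipase, and the stress-response gene Sesn1 (2.03) led the list with Lcn2, Mt2 and Fkbp5. Cdkn1a lay between -0.12 and 0.84 under vehicle and between 2.38 and 3.3 under dexamethasone. Its rise was 2.97 in WT and 2.3 in KO, and the 95% interval of the difference, -1.33 to -0.02, excluded 0 without passing after adjustment. Smaller rises were seen for the kinase gene Sgk1 (0.87, SE 0.09), the mTOR inhibitor gene Ddit4 (1.47, SE 0.27), the transcription factor genes Cebpd (1.36, SE 0.2) and Cebpb (0.83), and Nfkbia (0.78), which encodes the NF-kB inhibitor IkBa. The cytokine decoy receptor gene Il1r2 rose by 1.51.

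A total of 8 of the 30 did not pass. Per1 (log2 change 0.11, adjusted p 0.57), Klf9 (0.12, adjusted p 0.59), Dusp1 (0.02), Rgs2 (0.2), Arrdc2 (0.09), Tat (-0.28) and Bcl6 (-0.74) were among them, although several are widely used markers of glucocorticoid action. Tsc22d3, which encodes the glucocorticoid-induced leucine zipper protein, lay between 4.72 and 5.15 under vehicle and between 4.75 and 5.28 under dexamethasone. Its change of 0.21 (SE 0.09) missed the threshold (adjusted p 0.15), its second probe passed (0.34, adjusted p 0.031), and without WT dexamethasone replicate 3 the first probe passed too (0.27, adjusted p 0.025). Klf15 itself rose 2.14-fold (1.1, SE 0.18, adjusted p 0.00081), by 1.01 in WT and by 1.19 in KO, and its second probe rose by 0.78.

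The promoters of called genes were searched for a glucocorticoid response element, written as GNACA and TGTNC with 3 free bases between them (N is any base), which reads the same on both strands. RefSeq windows of assembly GRCm38.p6, 300 bases long (250 before and 50 after each start site), were found for 12110 of the 15175 symbols tested. The pattern stood in 0.475% of all 32851 windows. By gene it was present in 0.487% of the genes tested, in 1.34% of those called higher, in 0.185% of those called lower and in 0.417% of those not called. Among genes that rose in both genotypes the share was 2.73%, and it was 5.0% (10 of 200) for rises of at least 2-fold against 0 of 181 falls of that size. The 10 genes, singled out after their values were seen, were Mt1, Serpina3n, Fam107a, Map3k6, Gnmt, Trim63, Map7d2, Lrrc52, Car14 and Tinagl1. A match describes the letters in the window and does not show that the receptor binds there.

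The 7 matches that lie wholly before the start site are shown, since they belong to genes that rose by at least 2-fold and passed in both genotypes. Gnmt (1.75), Map7d2 (1.64) and Lrrc52 (1.55), whose match lies after the start site, are named only. Each stretch is on the gene's strand from 5′ to 3′, with the match in capitals and 10 bases on either side. The positions, in order, are chr8:94178985-94179017 (plus strand), chr12:104406620-104406652 (plus), chr14:8309875-8309907 (minus), chr4:133240627-133240659 (plus), chr4:134314902-134314934 (plus), chr3:95904888-95904920 (minus) and chr4:130174927-130174959 (minus), all of GRCm38.p6, a later build than that of the array annotation (mm9).
Mt1: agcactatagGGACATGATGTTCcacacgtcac
Serpina3n: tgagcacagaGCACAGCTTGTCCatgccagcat
Fam107a: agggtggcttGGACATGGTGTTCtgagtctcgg
Map3k6: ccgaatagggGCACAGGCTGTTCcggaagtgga
Trim63: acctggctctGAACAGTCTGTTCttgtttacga
Car14: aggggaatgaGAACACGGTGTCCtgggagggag
Tinagl1: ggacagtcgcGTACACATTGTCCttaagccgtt

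These 7 genes rose by 2.96 (Mt1), 2.44 (Serpina3n), 2.25 (Fam107a), 2.16 (Map3k6), 1.64 (Trim63), 1.12 (Car14) and 1.1 (Tinagl1) on the log2 scale. For each of them the 8 dexamethasone arrays lay above the 8 vehicle arrays, and each passed in both genotypes. The match of Trim63 begins 208 bases before the start site and that of Mt1 94 bases before it. The 250 bases before each of these start sites, at chr4:134314870-134315119 and chr8:94178839-94179088 (both plus strand, GRCm38.p6), give the context of the match in capitals.
Trim63: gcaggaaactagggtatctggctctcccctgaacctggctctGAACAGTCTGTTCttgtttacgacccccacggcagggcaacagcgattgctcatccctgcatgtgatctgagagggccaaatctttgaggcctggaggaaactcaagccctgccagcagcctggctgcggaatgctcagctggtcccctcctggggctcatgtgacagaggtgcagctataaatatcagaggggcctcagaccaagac
Mt1: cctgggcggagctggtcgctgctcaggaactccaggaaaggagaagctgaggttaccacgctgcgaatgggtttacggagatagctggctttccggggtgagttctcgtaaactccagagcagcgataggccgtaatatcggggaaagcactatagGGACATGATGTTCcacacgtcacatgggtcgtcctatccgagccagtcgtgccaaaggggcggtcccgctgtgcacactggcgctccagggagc

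Acute-phase, metallothionein and zinc transporter genes rose together in part. Of 26 measured members 11 rose and 1 fell (median log2 change 0.63), where 9.04% of all features rose and 8.18% fell. Besides Lcn2, Orm3, Mt1, Mt2 and Slc39a14, the risen members were the protease inhibitor genes Serpina3n (2.44) and Serpina3m (1.19), the haptoglobin gene Hp (2.14), Orm1 and Orm2 (1.8 each) and the oncostatin M receptor gene Osmr (0.79). The Orm and Serpina3 genes are families of similar sequence, and signal shared between their probes was not tested. Socs3, which encodes an inhibitor of cytokine signalling, fell (-0.81). The serum amyloid genes Saa1 (0.12), Saa2 (0.2) and Saa3 (-0.05), Stat3 (0.03) and C3 (-0.21) did not pass.

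Neutrophil markers moved on the same arrays as part of these results and are given beside them. Of 11 measured markers 1, Lcn2, passed. S100a9, which encodes a calcium-binding protein, reached 7.37 on WT dexamethasone replicate 3 and 6.12 on KO dexamethasone replicate 1, against at most -0.28 on the other 14 arrays. The summed level of the list ranged from -1.48 to -0.24 (log2) under vehicle and from 1.82 to 3.05 on the 6 other dexamethasone arrays, and was 7.94 and 6.7 on those 2 arrays. That sum is largely Lcn2 on the 6 arrays: over the 10 other markers it ranged from -1.68 to -0.48 under vehicle and from -1.83 to 0.42 on the 6 arrays, which overlap, and was 7.9 and 6.61 on the 2. The markers Elane, Cxcr2, Camp and Ngp were well above background on 6 arrays or fewer. Lcn2 did not follow the other markers: it was 2.56 and 2.61 on the 2 arrays and reached 2.8 on WT dexamethasone replicate 1. Without the 2 arrays Lcn2 still rose (log2 change 6.25, adjusted p 3.5e-07), and the median of the neutrophil list went from 1.64 to 0.02. The counts of the acute-phase list were then 11 rises and 2 falls.

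**Figure D3:**
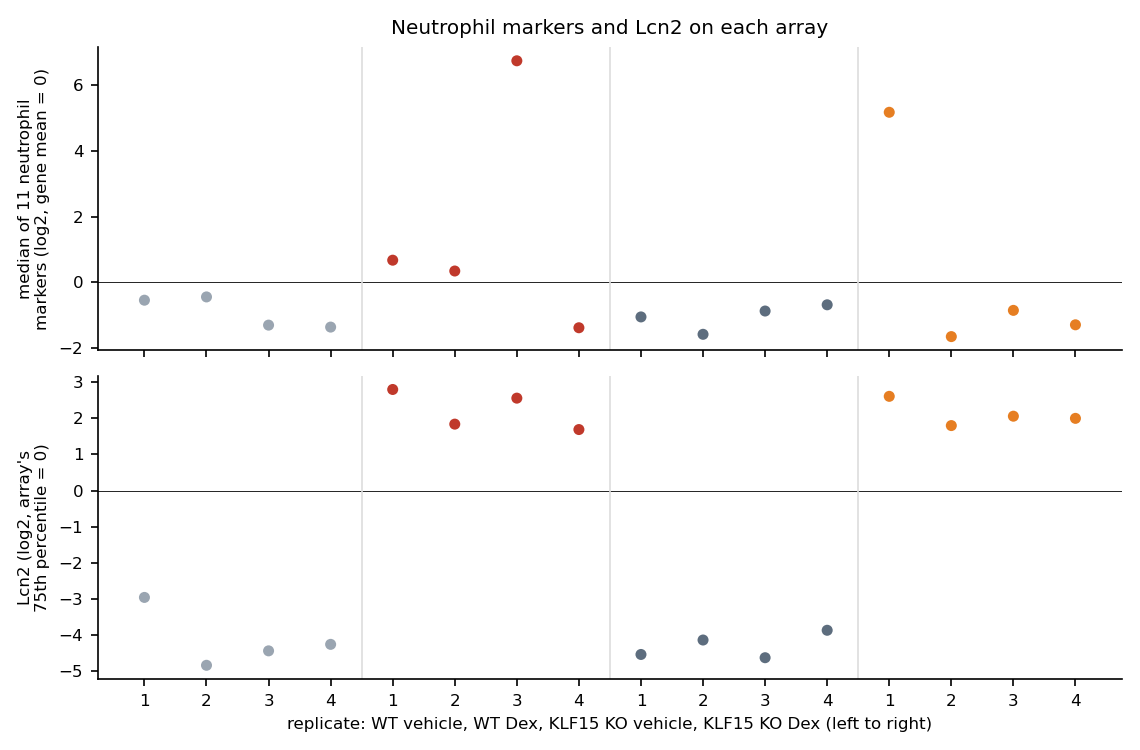
The upper panel plots the median deviation of 11 neutrophil markers from each gene's mean over 16 arrays (y axis, log2) and the lower panel the log2 level of Lcn2, for each array (x axis, replicates 1 to 4 of WT vehicle, WT dexamethasone, KLF15 KO vehicle and KLF15 KO dexamethasone). The marker median is 6.75 on WT dexamethasone 3 and 5.18 on KO dexamethasone 1, while Lcn2 is high on all 8 dexamethasone arrays.

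Of 25 measured ubiquitin ligase, Foxo and autophagy genes of muscle 12 rose and 1 fell, where 9.04% of all features rose, with a median log2 change of 0.25. Foxo1, a transcription factor of the atrophy programme, lay between 2.34 and 3.02 under vehicle and between 4.82 and 5.21 under dexamethasone. It rose 5.1-fold (2.35, SE 0.1, adjusted p 8e-09), alike in WT (2.33) and KO (2.37). Trim63, which encodes the muscle ubiquitin ligase MuRF1, lay between 5.48 and 6.02 under vehicle and between 7.09 and 8.17 under dexamethasone, the highest value being that of WT replicate 2. The rise was 3.11-fold (1.64, SE 0.12). Mstn, which encodes the growth inhibitor myostatin, rose 2.23-fold (1.16, SE 0.12). The list was led by Foxo1, Trim63 and Mstn, and Foxo3 (0.61), Gabarapl1 (0.57), Bnip3 (0.59) and Ulk1 (0.42) rose less.

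Fbxo32, which encodes the ligase atrogin-1, gives an example of a change that passed only when the genotypes were averaged. Its levels on the WT vehicle arrays were 4.0, 3.79, 4.24 and 4.32, and on the WT dexamethasone arrays 4.15, 6.55, 4.88 and 5.12. In KO the vehicle levels were 3.55, 3.69, 3.64 and 3.34 and the dexamethasone levels 4.61, 4.7, 4.88 and 4.36. The KO treatments did not overlap, while in WT 1 dexamethasone array lay within the vehicle range and replicate 2 far above the others. The average change was 1.09 (SE 0.25, adjusted p 0.0083), with 1.09 in WT (adjusted p 0.072) and 1.08 in KO (adjusted p 0.078). Proteasome and ubiquitin genes changed little: 3 of 26 rose, among them Psmb2 (0.26) and Psmc2 (0.22), and 0 fell, with a median of 0.13. The call of Psmc2 was lost without any 1 of 6 arrays (WT vehicle 1 or 2, WT dexamethasone 3, KO vehicle 3, KO dexamethasone 3 or 4).

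In the insulin, IGF1 and mTOR list 6 of 29 members rose and 2 fell (median 0.09), where 9.04% of all features rose and 8.18% fell. Sesn1 (2.03, SE 0.17) and Ddit4 (1.47), both inhibitors of mTOR, and Pik3r1 (1.6, SE 0.14), the regulatory subunit of PI3-kinase, rose most. Irs1, the main insulin receptor substrate of muscle, fell 2.09-fold (-1.06, SE 0.15). It lay between 3.3 and 4.01 under vehicle and between 1.42 and 3.04 under dexamethasone, with no overlap. Igf1 (-0.43), Igf1r (0.19), Mtor (0.22) and Akt1 (-0.1) did not pass. Ribosome biogenesis and initiation genes stayed near the background, with 2 of 23 risen (Eif3a 0.29 and Eif4a1 0.3, the latter with 2 other probes that did not pass) and a median of 0.1.

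Amino acid genes rose in part and by small amounts. Of 31 measured catabolic enzymes 11 rose and 0 fell (median 0.22), where 9.04% of all features rose. Without the 2 arrays with raised neutrophil markers 9 rose. The median of the list was 0.36 in WT and 0.13 in KO, where all features had -0.08 and 0.08. By array, the median deviation of the list was 0.15 to 0.2 on WT vehicle arrays and 0.4 to 0.59 on WT dexamethasone arrays, which do not overlap. In KO it was -0.39 to -0.26 under vehicle and -0.33 to -0.21 under dexamethasone, which overlap, and the difference between genotypes was not tested for the list. Glul, which encodes glutamine synthetase, rose 2.26-fold (1.18, SE 0.12) from a range of 4.97 to 6.15 to one of 6.56 to 7.09. The other 10 rises were under 1 log2 unit, among them Gpt2 (0.61), Prodh (0.5), Aldh6a1 (0.48), Oat (0.43) and Acadsb (0.39). The aminotransferase gene Bcat2 (0.29, adjusted p 0.2) and the branched-chain keto acid dehydrogenase genes Bckdha (0.16), Bckdhb (0.05) and Dbt (0.26) did not pass in the average. Only 2 of the 11 had passed in both genotypes alone. Among 19 amino acid transporters 9 rose and 2 fell (median 0.31), where 9.04% of all features rose and 8.18% fell. Slc7a8, a carrier of large neutral amino acids, rose 3.36-fold (1.75, SE 0.13), followed by Slc43a1 (1.11), Slc7a2 (0.94), Slc38a2 (0.91) and Slc38a3 (0.68). The taurine transporter gene Slc6a6 (-0.43) and the glycine transporter gene Slc6a9 (-0.61) fell. For Slc38a3 the change was 1.16 in WT and 0.19 in KO.

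Of 39 genes of fatty acid uptake, storage and oxidation 16 rose and 2 fell (median 0.25), where 9.04% of all features rose and 8.18% fell. Without the 2 arrays with raised neutrophil markers 12 rose and 2 fell. The lipid droplet protein genes Plin4 (1.27, SE 0.08) and Plin5 (1.93), the thioesterase genes Acot1 (2.01) and Acot2 (0.88), the uncoupling protein genes Ucp3 (1.48, SE 0.13) and Ucp2 (0.86), the nuclear receptor gene Ppara (1.49) and the fatty acid carrier gene Cd36 (0.82) rose. Plin4 lay between 6.17 and 6.7 under vehicle and between 7.56 and 8.01 under dexamethasone. The 2 falls were the coactivator genes of mitochondrial biogenesis, Ppargc1b (-1.3, SE 0.1) and Ppargc1a (-0.7, SE 0.08), each with no overlap between treatments. The mitochondrial carnitine palmitoyltransferase genes Cpt1b (0.14) and Cpt2 (0.18) and the beta-oxidation genes Hadha (0.1) and Acadvl (0.13) did not pass.

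Of 34 glucose genes 5 rose and 0 fell (median 0.07), a share of rises near the 9.04% of all features. Ppp1r3c, a glycogen-targeting subunit of protein phosphatase 1, rose 5.61-fold (2.49, SE 0.16), from 4.21 to 5.53 under vehicle to 7.01 to 7.71 under dexamethasone. Pdk4, the kinase that switches off pyruvate dehydrogenase, rose 3.12-fold (1.64, SE 0.16), alike in WT (1.62) and KO (1.66). Pfkfb1 (0.76), Txnip (0.86) and Slc2a1 (0.43) also passed. The glucose transporter gene Slc2a4 (0.14) and the glycolytic genes Pfkm (0.05), Ldha (0.11) and Pygm (-0.05) did not. Citric acid cycle and respiratory chain genes had 1 rise of 30 (Ndufa9, 0.24) and a median of 0.11, and that call was lost without any 1 of 10 of the 16 arrays.

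**Figure D4:**
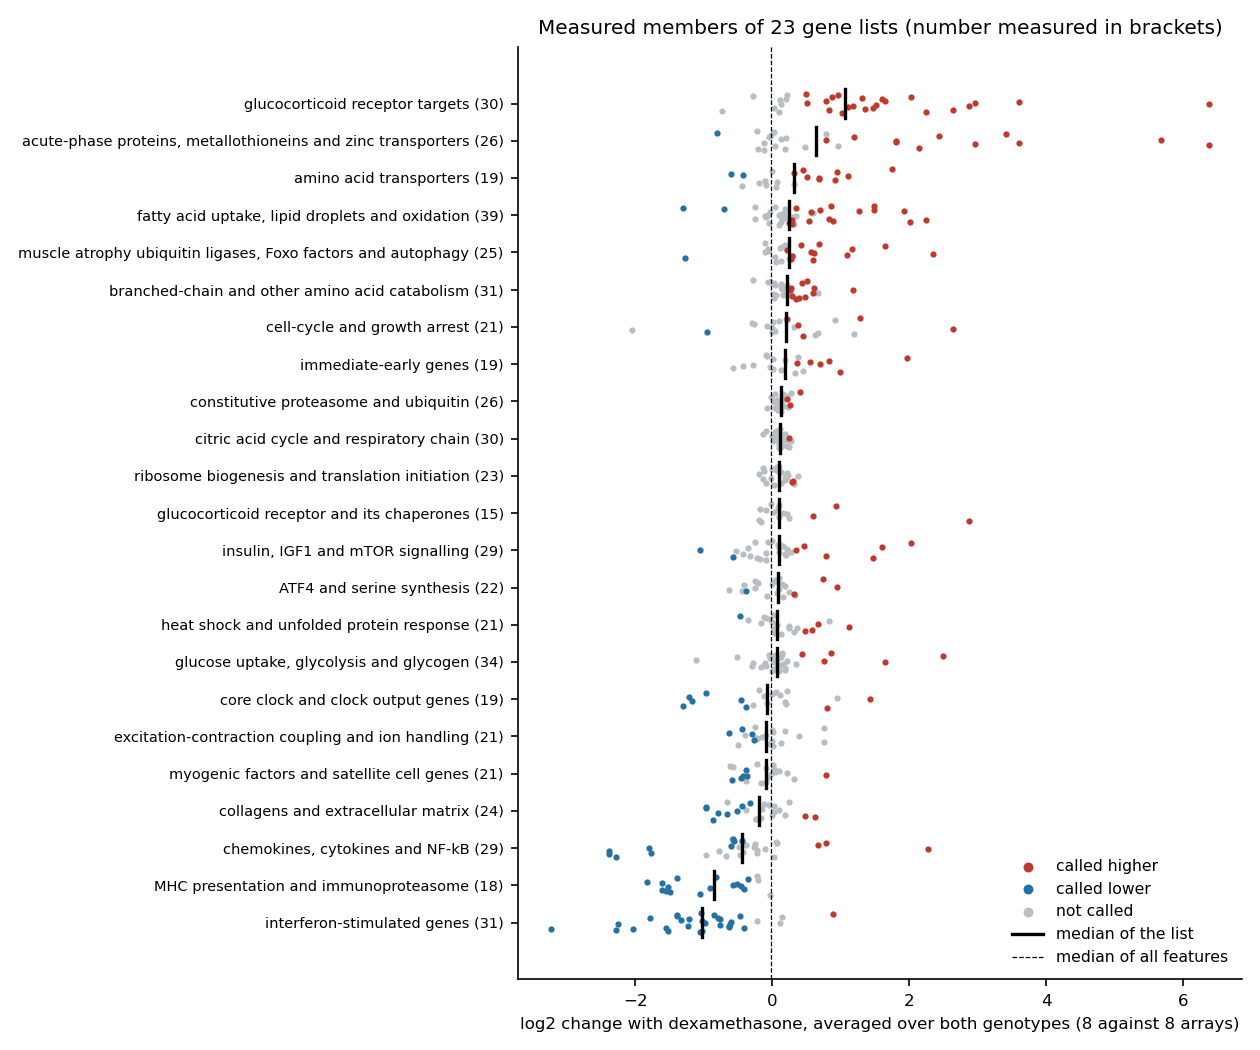
The log2 change with dexamethasone averaged over the genotypes (x axis, 8 against 8 arrays) is plotted for each measured member of 23 gene lists (rows, ordered by their median); red and blue points are members called higher and lower, grey points are not called, black ticks are list medians and the dashed line is the median of all features, -0.02. The lists of receptor targets (1.06) and of interferon-stimulated genes (-1.03) lie at the ends.

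The largest falls included genes of interferon response and of immune cells. Prnd, which encodes the prion-like protein doppel, lay between -3.39 and -1.86 under vehicle and was well above background on 8 of 8 of those arrays and on 0 of 8 dexamethasone arrays. It was at least 13.8-fold lower (adjusted p 2.9e-07), a bound set by the lowest signal still well above background. By the same rule Lrrc55 was at least 2.85-fold lower and Dhrs2 at least 2.43-fold lower. Has3, a hyaluronan synthase gene, was measured on 1 of 8 dexamethasone arrays and Camkv on 1 of 8, so that their log2 changes of -2.75 and -2.45 rest on signals near background. The mitotic spindle gene Fam83d fell 6.52-fold (-2.71, SE 0.24).

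Of 31 measured interferon-stimulated genes 27 fell and 1 rose, with a median log2 change of -1.03 (-1.0 in WT and -0.95 in KO). Falls passed in both genotypes alone for 23 of them, and 21 had no overlap between treatments. Over all features 8.18% fell, 2.33% fell in both genotypes and 2.29% lay lower without overlap. The falls of more than 2-fold included the guanylate-binding protein genes Gbp4 (-3.23), Gbp3 (-2.28) and Gbp2 (-1.52) and the GTPase gene Iigp1 (-2.25). Ifi44 (-2.04), Oasl2 (-1.79), Ifit1 (-1.55), Rtp4 (-1.4) and Ifit3 (-1.24) were also among them. Gbp2 lay between 0.41 and 1.39 under vehicle and between -1.05 and -0.55 under dexamethasone, and fell 2.87-fold (SE 0.13). Gbp4 cleared background on 5 of 8 arrays after dexamethasone. The transcription factor genes of the pathway fell less: Stat2 by 0.85, Irf9 by 0.61, Irf1 by 0.62 and Irf7 by 0.99 on the log2 scale. Usp18, a deubiquitinase that restrains the pathway, was the 1 rise (0.88), and Irgm1 (-0.22), Irf8 (0.11) and Rsad2 (0.14) did not pass. With normexp background correction, which moved the median of all features to 0.11, the median of the list was -0.52.

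Antigen presentation followed the same direction. Of 18 measured genes 15 fell and 0 rose (median -0.86), where 8.18% of all features fell. The immunoproteasome genes Psmb9 (-1.83, SE 0.16) and Psmb8 (-1.61, SE 0.12), the class II genes H2-Ab1 (-1.61), H2-Aa (-1.55) and H2-DMb1 (-1.52), their regulator Ciita (-1.49), Tap1 (-1.39) and the invariant chain gene Cd74 (-1.06) fell by more than 2-fold. Psmb9 lay between 0.31 and 1.09 under vehicle and between -1.82 and -0.62 under dexamethasone. The class I genes H2-D1 (-0.42) and H2-K1 (-0.46) fell less, and B2m (-0.03), Tapbp (-0.22) and Psme1 (-0.21) did not pass. Histocompatibility genes resemble one another, and signal shared between their probes was not tested.

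The same promoter windows were searched on both strands for an interferon-type element, GAAA followed after 2 free bases by a second GAAA. The pattern stood in 3.44% of all windows and in 3.93% of the genes tested. It was present in 7.47% of genes called lower, 3.11% of those called higher and 3.64% of those not called. The share was 10.9% for genes that fell in both genotypes and 17.1% (31 of 181) for falls of at least 2-fold, against 4.5% for rises of that size. An NF-kB element, GGGA and TTTCC with 1 free base between them, was present in 0.411% of windows, in 0.672% of genes called higher, 0.646% of those called lower and 0.478% of those not called.

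The stretches below show the interferon-type element, in capitals with 10 bases on either side, before the start sites of 6 members of the interferon and chemokine lists that fell by at least 2-fold. They were chosen after their values were seen. Only 1 match per gene is in capitals. Gbp3, Bst2 and Isg15 also hold matches that overlap it and run into the small letters. Ifit1 and Ifit3 hold a further match elsewhere before the start site. Each stretch is on the gene's strand from 5′ to 3′, and a match written with TTTC is the reverse complement of the pattern. In order they lie at chr3:142559989-142560018 (plus strand), chr19:34640775-34640804 (plus), chr19:34583363-34583392 (plus), chr5:92349083-92349112 (minus), chr8:71537577-71537606 (minus) and chr4:156200865-156200894 (minus) of GRCm38.p6.
Gbp3: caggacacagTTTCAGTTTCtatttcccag
Ifit1: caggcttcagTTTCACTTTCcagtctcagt
Ifit3: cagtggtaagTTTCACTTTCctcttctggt
Cxcl10: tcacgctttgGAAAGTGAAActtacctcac
Bst2: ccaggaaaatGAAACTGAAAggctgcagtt
Isg15: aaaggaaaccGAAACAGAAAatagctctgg

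Their log2 changes were -2.28 (Gbp3), -1.55 (Ifit1), -1.24 (Ifit3), -2.38 (Cxcl10), -1.06 (Bst2) and -1.03 (Isg15). Gbp3, Ifit1, Ifit3 and Bst2 passed in both genotypes without overlap between treatments, whereas Cxcl10 and Isg15 passed in the average and overlapped. For Gbp2, with 1 match, and Ifit1, with 2, the 250 bases before the start site are given as context (chr3:142620413-142620662 and chr19:34640639-34640888, both plus strand, GRCm38.p6), with matches in capitals.
Gbp2: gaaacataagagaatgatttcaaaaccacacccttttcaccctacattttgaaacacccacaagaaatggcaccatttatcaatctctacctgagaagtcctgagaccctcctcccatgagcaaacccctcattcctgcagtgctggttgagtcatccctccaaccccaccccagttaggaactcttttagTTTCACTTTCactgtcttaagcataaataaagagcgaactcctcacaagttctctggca
Ifit1: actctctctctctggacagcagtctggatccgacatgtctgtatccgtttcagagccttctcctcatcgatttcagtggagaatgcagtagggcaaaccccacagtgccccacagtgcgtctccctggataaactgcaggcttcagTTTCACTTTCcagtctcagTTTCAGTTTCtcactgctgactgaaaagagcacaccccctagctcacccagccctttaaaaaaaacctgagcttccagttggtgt

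**Figure D5:**
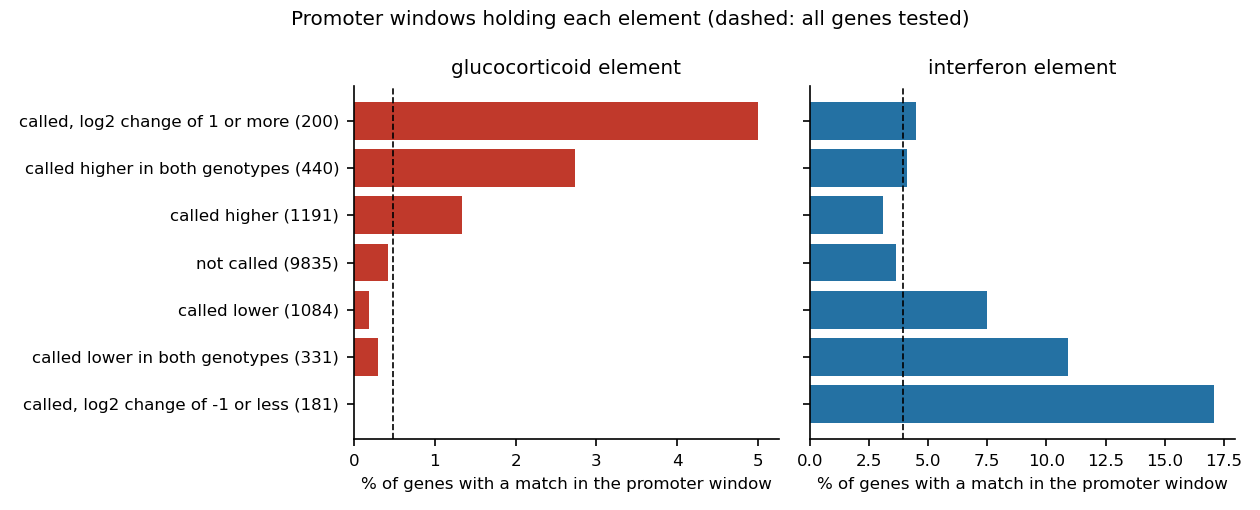
Bars give the percentage of genes whose promoter window holds the glucocorticoid element (left) or the interferon-type element (right) (x axes), by how the genes were called (y axis, number of genes with a window in brackets); the dashed lines mark all genes tested, 0.487% and 3.93%. The first share is highest among rises of at least 2-fold (5.0%) and the second among falls of that size (17.1%).

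Chemokine genes were among the falls, with exceptions. Of 29 measured chemokine, cytokine and NF-kB genes 9 fell and 3 rose (median -0.45), where 8.18% of all features fell and 9.04% rose. The monocyte chemoattractant genes Ccl2 (-2.29, SE 0.33), Ccl7 (-2.39, SE 0.39) and Ccl8 (-1.78) and the interferon-induced chemokine genes Cxcl9 (-1.8, SE 0.25) and Cxcl10 (-2.38) fell by more than 2-fold. Ccl2 lay between -2.75 and -0.61 under vehicle and between -4.47 and -3.04 under dexamethasone. Cxcl13, a chemoattractant of B cells, rose 4.87-fold (2.28, SE 0.34), and its treatments overlapped. Il1r1 (0.66) and Nfkbia (0.78) were the other rises. Il6 (-0.39), Tnf (-0.45), Ptgs2 (0.07) and Icam1 (-0.27) did not pass.

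Part of the macrophage markers and 2 lymphocyte markers also fell, while 0 of 11 neutrophil markers did. In whole muscle, fewer cells of a type and less RNA per cell cannot be told apart. Of 14 macrophage markers 7 fell and 1 rose (median -0.51), where 8.18% of all features fell and 9.04% rose. Aif1, which encodes the macrophage protein IBA1, lay between -1.52 and -0.16 under vehicle and between -4.39 and -2.67 under dexamethasone, and fell 7.74-fold (-2.95, SE 0.28). The high-affinity IgG receptor gene Fcgr1, itself inducible by interferon, fell 4.48-fold (-2.16, SE 0.22). The other falls were below 1 log2 unit: Adgre1 (-0.82), Folr2 (-0.79), C1qc (-0.74), Ms4a7 (-0.69) and Csf1r (-0.53). Lyve1 rose (0.8), and C1qa (-0.4), C1qb (-0.45), Ctss (-0.38) and Mrc1 (-0.12) did not pass. The summed level of the macrophage list ranged from 3.81 to 4.63 under vehicle and from 3.39 to 4.36 under dexamethasone, so that the treatments overlapped. All 14 were well above background on all 16 arrays. Of 12 lymphocyte markers 2 fell, the T-cell receptor zeta gene Cd247 (-2.26, SE 0.12) and Gzmb (-1.32), which was measured on 4 vehicle arrays and 1 dexamethasone array and was lost without any 1 of 12 of the 16 arrays. The part of cell numbers in the interferon and chemokine results was not tested.

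Clock genes split by direction. Of 19 measured core clock and output genes 6 fell and 2 rose (median -0.08), where 8.18% of all features fell and 9.04% rose. Dbp lay between 5.92 and 6.41 under vehicle and between 4.71 and 5.24 under dexamethasone, and fell 2.24-fold (-1.17, SE 0.1). Nr1d1 (-1.22), Bhlhe41 (-1.3), Per3 (-0.97), Hlf (-0.46) and Bhlhe40 (-0.39) fell. Nfil3, a repressor of the same promoters that Dbp activates, rose 2.7-fold (1.43, SE 0.13), and the core activator gene Arntl rose by 0.8. Clock (0.2), Per2 (-0.01), Cry1 (-0.08) and Cry2 (0.19) did not pass.

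For the lists that follow, 9.04% of all features rose and 8.18% fell. Of 19 immediate-early genes 6 rose and 0 fell (median 0.19). Maff, a small Maf transcription factor, rose 3.92-fold (1.97, SE 0.16), and Btg2 (0.99), Jun (0.82), Fosl2 (0.69), Ier3 (0.55) and Ier2 (0.36) rose less. Second probes of Fosl2 (-0.05) and of Btg2 (0.48 and 0.51) did not pass. In the cell-cycle list 5 of 21 rose and 1 fell, and without the 2 arrays with raised neutrophil markers 2 fell and its median went from 0.2 to -0.04. Besides Cdkn1a these were Trp53inp1 (1.28, SE 0.1), Btg1 (0.44), Gadd45a (0.38) and Rb1 (0.21), all known to restrain growth or division. The cyclin gene Ccnd2 fell 1.94-fold (-0.95, SE 0.08) with no overlap. Among 21 heat shock and unfolded protein genes 4 rose and 1 fell (median 0.07), with Hspa2 (1.12) and the small heat shock protein gene Hspb1 (0.66) in front. In the ATF4 list 3 of 22 rose and 1 fell (median 0.08), and 2 rose without the same 2 arrays. Mthfd2 (0.94) and Trib3 (0.74) led, the second probe of Trib3 not passing (-0.04), and the call of Atf4 (0.32) was lost without any 1 of 9 of the 16 arrays.

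Of 24 matrix genes 8 fell and 2 rose, where 8.18% of all features fell and 9.04% rose (median -0.2, with -0.36 in WT and 0.03 in KO). The proteoglycan gene Lum lay between 2.59 and 3.3 under vehicle and between 1.54 and 2.2 under dexamethasone, and fell 1.96-fold (-0.97, SE 0.11). Col15a1 (-0.87), Loxl1 (-0.97), Col6a2 (-0.79) and Col6a1 (-0.66) also fell, while the basement membrane collagen genes Col4a1 (0.62) and Col4a2 (0.47) rose. The fibrillar collagen genes Col1a1 (-0.24), Col1a2 (-0.24) and Col3a1 (-0.16) did not pass. Among 21 myogenic genes 5 fell and 1 rose (median -0.1), and 3 fell without the 2 arrays with raised neutrophil markers. Myf6, the myogenic factor of adult fibres, rose 1.73-fold (0.79, SE 0.09), and the Notch target genes Hes1 (-0.59) and Heyl (-0.46) fell. In the excitation-contraction list 4 of 21 fell (Jph2 -0.64, Scn4a -0.44, Jph1 -0.3 and Cacnb1 -0.27), and 2 fell without the same 2 arrays. The calls of Jph1 and Cacnb1 were lost without any 1 of 10 and of 4 arrays.

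Fibre-type markers passed in 0 of 23 measured genes. The fast markers had a median of 0.13 over 13 genes. The median of the 10 slow markers was 0.82, and 2.09 with slide as a fixed block. Myh7 was 2.63 higher in the average without passing. Of 13 endothelial markers 3 fell, Tek (-0.61), Kdr (-0.64) and Eng (-0.34), where 8.18% of all features fell. The median of the endothelial list was -0.15 (0.02 in WT and -0.28 in KO), and 0 members lay lower without overlap. Emcn, Cldn5, Esam and Flt1 had higher medians under dexamethasone than under vehicle without passing. Of 11 smooth muscle and pericyte markers 2 fell, Notch3 (-0.94, SE 0.07) and Kcnj8 (-0.29), and Myh11 rose (0.48). Without the 2 arrays with raised neutrophil markers 1 of these 11 fell. The call of Kcnj8 was lost without any 1 of 10 arrays. Of 11 fibro-adipogenic and tendon markers Cd34 fell (-0.42). Of 9 adipocyte markers 1 rose, the leptin gene Lep (2.96-fold, 1.57, SE 0.24), while Adipoq (-0.18) did not pass. The summed level of the adipocyte list ranged from 6.35 to 7.98 under vehicle and from 6.22 to 8.04 under dexamethasone. None of 4 erythroid and 8 nerve markers passed, with medians of 0.63 and -0.1. The erythroid deviation was 1.83 and 1.44 on the 2 arrays with raised neutrophil markers, and its median was 0.1 without them. Of the nerve markers 1 fell without them.

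Averaging over genotypes added features that neither genotype showed alone. Of the 4338 called features, 1014 passed in neither genotype by itself, 546 higher (median 0.33) and 468 lower (median -0.44). Features called in both genotypes had medians of 0.8 and -0.88. These classes share arrays with the average and are a description of where its calls came from. The largest rises called in the average alone were Serpina3k (3.03, SE 0.89), Scrg1 (2.75, SE 0.65), Gpr179 (1.88), Depp1 (1.74, SE 0.45), Kif4 (1.64) and Gsta3 (1.58), with standard errors wider than those of the shared rises. Scrg1 was -0.59 on WT dexamethasone replicate 3 and -1.64 on KO dexamethasone replicate 1, against -5.17 to -3.96 on the 6 other dexamethasone arrays, and its change was 1.92 without those 2. Depp1, a Foxo target, lay between 1.55 and 2.56 under vehicle and reached 6.51 on WT dexamethasone replicate 2, the other 7 arrays lying between 2.84 and 4.17.

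Among the largest falls called in the average alone were dim features: Tlr1 (-1.78), Pbp2 (-1.65), Mettl7b (-1.49) and Gzmb, each well above background on 2 or fewer dexamethasone arrays, and Sh3gl2, at least 1.2-fold lower. With normexp background correction Tlr1 (0.05), Pbp2 (0.05), Gzmb (0.15), Sh3gl2 (0.18) and Dhrs2 (0.01) turned to the other sign and did not pass. Calls were also lost on leaving out 1 array for Serpina3k (WT vehicle 1, WT dexamethasone 1, KO vehicle 2 or 3, KO dexamethasone 1 or 2), Gpr179 (WT vehicle 1 or 4, KO vehicle 2), Pbp2 (KO vehicle 1, KO dexamethasone 3 or 4) and Mettl7b (12 of the 16 arrays).

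The size of the response was compared between genotypes through the interaction, the KO change minus the WT change. After adjustment 0 of 25189 features passed in limma (smallest adjusted p 0.0922), while 2892 (11.5%) had an unadjusted p under 0.05. With slide as a random block 310 passed. For 1096 of the 1355 features called in both genotypes (80.9%) the 95% interval of the difference lay within 1 log2 unit of 0. Over all features this share was 53.4%. The interval excluded 0 for 142 of the 1355 (10.5%), against 11.5% of all features. The median difference in size was 0.16, against 0.27 over all features. The 1355 were chosen by passing in the same direction in both genotypes on these arrays, which itself favours small differences and narrow intervals. A p that misses the threshold does not show that the genotypes respond alike. For the other 259 of the 1355 features a 2-fold difference remains within the interval. The smallest interaction p among features called in the average belonged to Spop (-0.82 in WT, 0.07 in KO), Itih5 (-0.75 and 0.09), Cth (1.53 and -0.34), Tnrc18 (-1.09 and -0.25) and Nf1 (-0.6 and 0.11). Their average change describes neither genotype well. Cth, which encodes cystathionine gamma-lyase, was called in the average at 0.6 although its KO mean was lower after dexamethasone.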

How the data were processed

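RNA of 16 quadriceps samples was amplified and hybridised, 1 sample per 1-colour Cy3 array, per the labels' protocols. The deposited scanner files hold, per the file headers, spot intensity values from Agilent Feature Extraction, background-subtracted and spatially detrended by the authors, with array annotation on build mm9. A deposited series table holds log2 values from the authors, whose log base, centring and steps are unknown (column medians 6.85 to 6.87); it served as an alternative only.

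Control spots were left out, spots of a probe averaged, and log2 processed intensity was set relative to the 75th percentile of each array. Probes well above background on at least 4 arrays were kept, and the brightest passing probe stood for each gene or unnamed accession. Of 41174 probes, 26382 carried an accession held by RefSeq and 24844 were given its symbol. limma 3.58.1 in R 4.3.3 fitted the 4 group means, and the average contrast was tested over 25189 features with Benjamini-Hochberg adjustment at 0.05. The fit was tested on simulated data with independent noise on each array. Those data held no slide effect, so variation shared by a slide was not covered. The members and gene lists were chosen with earlier results of these data known. Genes named are the 12 largest rises and falls, the smallest p-values, the largest changes called in the average alone, the leading interactions, called list members, and genes of the study's question. Some genes that the rule names are not reported here, though counts include them. No gene list was given a test: lists are described by counts and medians beside all features. Bounds ("at least N-fold") use the lowest signal well above background on each array. Arrays lay on 8 slides, 4 of which held both treatments of 1 genotype. WT dexamethasone 1, 3 and 4 and KO dexamethasone 3 had no vehicle array on their slide, and KO vehicle 2 was alone on its slide. Treatment and slide were thus partly confounded, and arrays of 1 slide shared variation beyond their group (consensus correlation 0.574). Of 136 called named genes, 127 had the sign of the average on all 4 slides with both treatments. Many of those genes were chosen by their change on the same arrays, so this count does not test for an effect of slide. Alternatives were the scaling, background correction, filter, probes, slide and replicate blocks, and arrays left out. The files hold no mean spot signal, so normexp (offset 50) used the median spot and background signals.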

Additional observations from a re-analysis of the deposited data

Results flagged for a closer look

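Each value below is the highest or lowest of the 4 arrays of its group and stands far from the other 3 (its gap to the nearest, over the range, exceeds Dixon's 95% critical value). Each list and each named gene was examined in each of the 4 groups, and chance alone flags about 1 group in 20. Values are log2 levels unless stated. Their causes were not tested.

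Among the medians of gene lists (log2 deviation from each gene's mean), the neutrophil markers stood at 5.18 on KO dexamethasone 1, the atrophy list at 0.4 on WT dexamethasone 2, and the acute-phase list at -0.08 on KO vehicle 4. Amino acid catabolism was 0.2 on WT vehicle 4, amino acid transporters -0.18 on KO vehicle 4 and excitation-contraction coupling 0.17 on WT vehicle 3.

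WT dexamethasone 2 stood apart for Depp1 (6.51), Sesn1 (5.71), Irs1 (1.42) and Fam83d (-3.78). WT dexamethasone 1 stood apart for Pik3r1 (2.55) and Pdk4 (7.18), WT dexamethasone 3 for Map3k6 (4.07), Eif3a (2.98) and Tsc22d3 (4.75), and WT dexamethasone 4 for Gpr179 (-1.13) and Ndufa9 (5.95).

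KO dexamethasone 4 was isolated for Ccl2 (-3.04), Ccl7 (-3.68), Rtp4 (-0.66), Maff (0.0), Pik3r1 (1.7) and Greb1 (-1.89). KO dexamethasone 1 was isolated for Scrg1 (-1.64). KO dexamethasone 2 was isolated for Stc2 (0.79), Fosl2 (-1.23), Cd34 (3.68) and Klf15 (0.24).

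Of the WT vehicle arrays, replicate 1 stood apart for Camkv (-1.29), Serpina3k (-7.21) and Kcnj8 (3.37), and replicate 2 for Greb1 (-8.67) and Jph2 (2.18). Replicate 3 did so for Psmb2 (2.16) and Btg2 (0.08), and replicate 4 for Map3k6 (2.37) and Cdkn1a (0.29). Of the KO vehicle arrays, replicate 1 stood apart for Depp1 (1.72), and replicate 2 for Psmc2 (5.37), Slc6a6 (3.26), Ppargc1a (2.49) and Ppp1r3c (5.33). Replicate 4 did so for Gsta3 (1.29), Glul (5.86), Cxcl13 (-3.52) and Btg1 (2.52).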

How the results depend on the processing

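The 4338 features called in the average became 875 with normexp background correction, 3093 scaled to the array median, 3050 with slide as a fixed block and 6133 with slide as a random block, and 3541 to 4255 with 1 array left out. The 1355 called in both genotypes became 734 scaled to the array median, 128 with normexp, 572 and 2349 with slide as a fixed and a random block, 860 without the 4 arrays apart on the first component, and 993 to 1275 with 1 array left out. Interaction calls, 0 in the main setting, numbered 1 in the deposited log2 values, 310 with slide as a random block and 0 to 5 with 1 array left out (5 without KO vehicle 4). The median change of all features went from -0.02 to 0.07 with median scaling and 0.11 with normexp.

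Of 136 called named genes 65 kept their call and direction under each alternative run, and 12 lost it with some array left out. Under normexp 60 lost their call and 6 turned, among them Dhrs2 (0.01), Tlr1 (0.05), Pbp2 (0.05), Gzmb (0.15) and Sh3gl2 (0.18). Per1, not called, went to -0.01. The median of 21 of 34 lists moved by more than its spread under some setting: under normexp the receptor targets to 0.91, the interferon list to -0.52 and antigen presentation to -0.54. The causes were not tested. With the replicate block 2830 features were called in the average, 600 in both genotypes and 0 for the interaction. Numbers did not pair the samples: deviations of same-numbered arrays correlated at -0.524 to 0.288. The median standard error was 0.45 for the features of lowest level and 0.09 for those of highest level.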
